A study of Mus musculus with 6 samples.

Results

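Suprachiasmatic-type neurons were the neurons of the dissected paraventricular hypothalamus that carried RNA of at least 2 of 5 genes typical of the suprachiasmatic nucleus, the brain's circadian pacemaker. The genes were Prok2, Nms, Vipr2, Vip and Six6. A barcode counted as a neuron when it held at least 6 UMIs (unique molecular identifiers, one per captured RNA molecule) of Snap25, Syt1, Stmn2 and Rbfox3 together. The rule found 205 cells among the 23083 barcodes of the whole series and the 7177 kept barcodes of the 2 hypothalamic libraries. There were 74 in the control library and 131 in the stress library. Measured values chose these cells, so the 5 genes and the 4 neuron genes are described here without a test.

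The libraries were droplet single-cell RNA sequencing (10x Genomics) of the extended paraventricular nucleus (PVN), cut by hand from a brain slice. Both came from C57BL/6 mice of 10 weeks with no transgene named in the labels. One library held control mice and the other mice after 21 days of chronic social defeat, in which a mouse is repeatedly exposed to an aggressor, and each was a pool of 5 mice. With 1 library per group there is no replicate and no test between the conditions. Every interval below is an exact 95% interval for counting error only, and describes these pools and not mice. The sources used here do not give the time of day at which tissue was taken.

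The suprachiasmatic nucleus sits in front of and below the PVN and sends fibres to it. Its neurons are nearly all GABAergic and run a transcriptional clock, in which Clock and Arntl (BMAL1) drive the Per and Cry genes, whose proteins then block them. Its dorsal shell is known for neurons with vasopressin (Avp), and its core, which receives light signals from the retina, for neurons with vasoactive intestinal peptide (Vip) or gastrin-releasing peptide (Grp). Prokineticin 2 (Prok2) and neuromedin S (Nms) are secreted signals of the nucleus, Vipr2 is the receptor through which VIP keeps its cells in step, and Six6 is a homeobox factor needed to form it.

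The members made up 4.76% of 1555 control neurons (interval 3.75 to 5.94) and 8.52% of 1537 stress neurons (7.17 to 10.0), a ratio of 1.79. The rule itself set these shares, so they are a description. Six6 was also found in more of the other neurons of the stress library (8.71% in control and 13.2% in stress), and the other neurons differed in genes of neighbouring regions. Pmch, the peptide of lateral hypothalamic neurons, stood at 1166 CPM (UMIs of a gene scaled to equal library totals) in control and 312 CPM in stress, and Gnrh1, the peptide of preoptic neurons, at 64.2 and 1.02 CPM. Hcrt, also a peptide gene of lateral hypothalamic neurons, went the other way, at 264 CPM in control and 377 CPM in stress. Genes of the neighbouring regions thus had no common direction. Tissue border and stress cannot be told apart here. In the other tissues the same rule met 2 of 435 and 2 of 418 barcodes in the pituitary and 0 of 15 and 0 of 28 in the adrenal. Among oligodendrocytes, microglia and endothelial cells of the PVN libraries, no barcode had 2 of the marker genes.

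Depth was lower in the members than around them. Their median was 8889.5 UMIs in control and 9627 in stress, against 11890 and 12153 in the other neurons. The median mitochondrial share was 2.58% and 2.55%, against 3.54% and 3.91%. The 2 libraries shared 16 barcode sequences, within the range of 10 to 39 over the 15 pairs of libraries in the series, and no member barcode of one was a member in the other. A score against simulated doublets marked 5 of the 74 control members and 3 of the 131 stress members. Mixed barcodes, defined by over 20 UMIs of glial or ependymal genes or over 100 of PVN hormone genes, numbered 6 and 3. Some of the results they touch are given with and without them. Where no second value is given, the mixed barcodes are included.

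Six6 was found in 78.4% and 86.3% of the members of the control and stress library, Nms in 66.2% and 72.5%, Vipr2 in 55.4% and 57.3%, and Prok2 in 40.5% and 48.9%. Vip was found in only 5 and 10 cells, but with up to 114 and 205 UMIs in one cell. The most common pairs were Nms with Six6 (15 and 25 cells) and Vipr2 with Six6 (12 and 22 cells). At the edge of the rule, the 214 and 269 neurons with 1 of the genes had 53.6 and 61.0 CPM of Rgs16, and the 47 and 66 neurons with exactly 2 had 573 and 351 CPM. With exactly 3 it stood at 1209 CPM in both libraries. In all, 27 of 74 and 65 of 131 members had 3 or more of the genes.

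On the GRCm38 build the rule genes lie at chr6:99711299-99726392 (Prok2, minus strand), chr1:38939149-38950276 (Nms, plus), chr12:116077726-116146261 (Vipr2, plus), chr10:5639218-5647617 (Vip, plus) and chr12:72939892-72944899 (Six6, plus). Of the genes named most below, Avp lies at chr2:130580620-130582554 (minus), Rgs16 at chr1:153740349-153745468 (plus), Dbp at chr7:45705088-45710203 (plus) and Hspa1a at chr17:34969190-34972156 (minus). All are protein-coding. UMIs were counted per gene without separating exons, so the counts do not show which part of a gene was read.

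**Figure D1:**
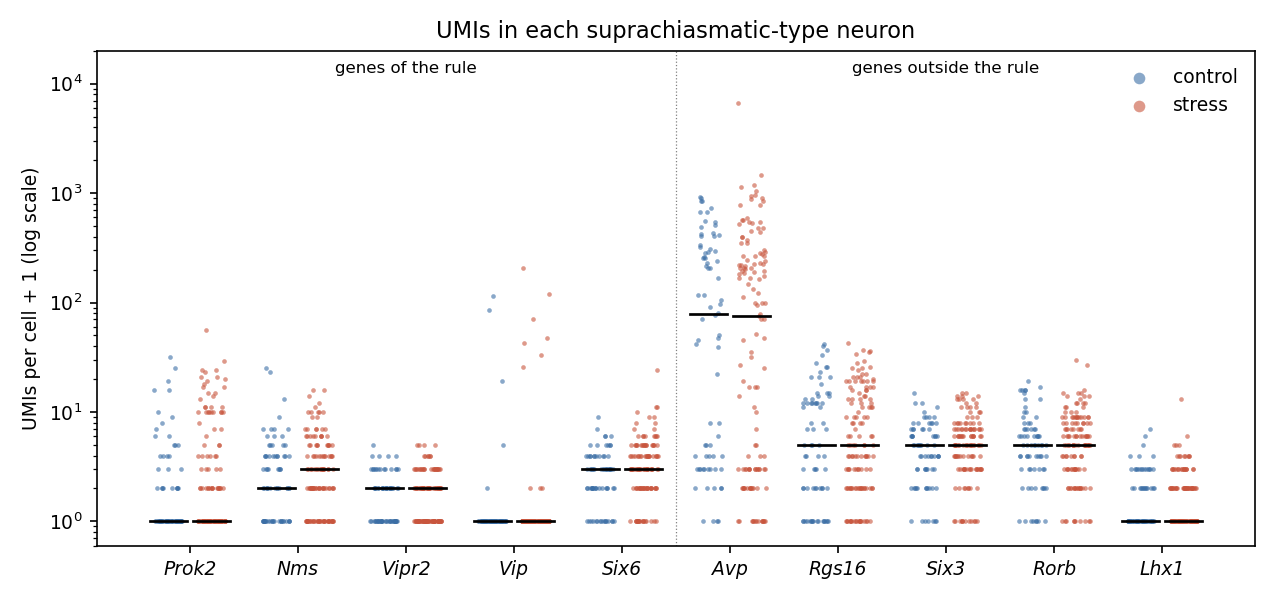
UMIs of 10 genes in each suprachiasmatic-type neuron, 74 control and 131 stress cells, plotted as UMIs plus 1 on a log axis; black lines are medians. Avp runs from 0 to 911 UMIs in control and from 0 to 6626 in stress, while Vip is at 0 in most cells and high in a few.

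The name was checked against genes outside the rule. Rgs16, a regulator of G-protein signalling with strong daily rhythm in the nucleus, had a lowest, median and highest count of 0, 4 and 41 UMIs per control member and 0, 4 and 42 per stress member. It was found in 77.0% and 85.5% of members, against 23.4% and 25.5% of the other neurons and 1.49% and 1.23% of oligodendrocytes. With every cell thinned to 2500 UMIs the shares were 63.5% and 62.6% of members and 8.71% and 9.46% of other neurons. The summed level was 801 and 795 CPM, against 36.7 and 40.3 CPM in the other neurons, a log2 difference of 4.45 (4.29 to 4.61) and 4.30 (4.16 to 4.44). The intervals of the 2 libraries overlapped.

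Of the transcription factors listed for the nucleus, 8 of 12 with enough UMIs were above the other neurons in both libraries, where 10.6% of all 8785 genes measured were above and 17.2% below. Rora and Rorb, nuclear receptors that drive Arntl, were 3.14 and 3.41 and 2.58 and 2.81 higher on the log2 scale in control and stress. Six3, a forebrain homeobox factor, was 2.66 and 2.29 higher, and Lhx1, which is needed for the coupling of suprachiasmatic cells, 2.68 and 2.41 higher. Zic1 (2.03 and 1.79) and Zfhx3 (0.95 and 1.10), a homeobox factor that sets the period of the clock, stood above as well. Dlx1, a factor of forebrain GABA neurons, was lower by log2 values of -0.70 and -0.55.

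Among receptors and signalling genes, 7 of 13 were above the other neurons in both libraries, Rgs16 among them, and 5 were below. Prokr2, the receptor for prokineticin 2, was 4.16 and 4.43 higher on the log2 scale at 76.9 and 66.6 CPM. Grpr, the receptor for gastrin-releasing peptide, was 4.11 and 3.72 higher, and Avpr1a, a vasopressin receptor, 3.38 and 3.08 higher. Drd1, a dopamine receptor, was 3.04 and 2.66 higher, and Syt10, a synaptotagmin used as a genetic handle on this nucleus, 2.73 and 2.77 higher. The members thus carried RNA for receptors of 3 of the nucleus's own peptides. On the other side, the AMPA receptor subunit Gria2 had log2 values of -0.89 and -0.57, and Calb2 (calretinin) had log2 values of -1.56 and -1.48.

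The members were GABAergic. Slc32a1, which loads GABA into vesicles, was found in 86.5% and 86.3% of them, against 56.3% and 68.6% of the other neurons. Slc17a6, which loads glutamate, was found in 6.76% and 6.11%, against 39.8% and 32.6%. After thinning, the Slc17a6 shares were 0% (0 of 74 cells, where 3 counts would be 4.05% of cells thinned this way and do not limit expression) and 1.53%, against 19.6% and 17.6%. For receptors of GABA the members stood low, with 9 of 11 measured GABA-A receptor subunits below the other neurons in both libraries and a median log2 difference of -1.29 and -1.08, where the median of all genes was -0.08 in each. Gabrg1 stood at -1.73 and -1.57, and Gabra2 at -1.29 and -1.35. Gabrg3 was the single subunit above, by 1.23 and 1.02.

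Ion channels tied to the daily rhythm of firing gave 2 of 18 above in both libraries, near the 10.6% of all genes, and 7 below, where 17.2% of all genes were. Kcnc2, a fast potassium channel, was above by 0.81 and 1.08. Below were the sodium channel Scn2a1 (-0.76 and -0.77) and Kcnk2 (-2.01 and -1.53), a leak potassium channel. Kcnma1, the BK channel, stood at 0.052 (-0.51 to 0.53) and 0.12 (-0.27 to 0.47), not clear of counting error.

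Of 5814 genes with at least 50 UMIs, 4.04% were higher than in the other neurons by a fold of 2 in both libraries and 2.15% lower. The 20 genes outside the rule that stood furthest above the other neurons in both libraries were led by Rgs16, Creb3l1, Rasl11b, 9330185C12Rik and Grin2c. Creb3l1, a transcription factor known from vasopressin neurons, was 4.77 and 4.71 higher on the log2 scale and was found in 26 and 46 members. Rasl11b, a small GTPase-like protein, was 4.45 and 4.56 higher, and Grin2c, an NMDA receptor subunit, 4.66 and 4.48 higher. The imprinted genes Nnat and Dlk1 were abundant in members as well as high against other neurons. Nnat stood at 5875 and 6430 CPM, 2.74 and 3.04 above, and Dlk1 at 1961 and 1957 CPM, 2.91 and 2.95 above.

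Clock genes stood above the other neurons as a group. Of 19 measured, 15 were above the other neurons in both libraries, Rora and Rorb among them, and 1 (Bhlhe40, -1.15 and -0.60) was below. The median difference was 1.05 and 0.79. Per2, part of the inhibitory arm, was 2.53 and 2.18 higher, and Cry1 1.90 and 1.80 higher. Nr1d1 (REV-ERB alpha), which represses Arntl, was 1.82 and 1.52 higher, Ciart 1.77 and 1.37 and Fbxl21, which acts on the stability of the CRY proteins, 2.25 and 2.96. Arntl itself was 1.22 and 1.16 higher, while Csnk1d and Csnk1e, kinases of the PER proteins, were not above in either library. Depth was low for single clock genes, with Per2 at 33 and 53 UMIs and a highest count of 3 in any cell.

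Avp was the peptide with most RNA in the members. Its count per cell had a lowest, median and highest value of 0, 78 and 911 UMIs in control and 0, 74 and 6626 in stress. The medians were 2 and 1 in the other neurons and 1 and 0 in oligodendrocytes, of which 62.1% and 48.8% had at least 1 Avp UMI, so counts of that size are background. Cells with at least 100 Avp UMIs numbered 34 of 74 (45.9%) and 60 of 131 (45.8%), and cells with under 10 numbered 29 (39.2%) and 50 (38.2%). The makeup by Avp was thus nearly the same in both libraries. The single stress cell with 6626 Avp UMIs also held 446 of Oxt, no Rgs16 and only 2 marker UMIs.

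Against the Avp-low members, the Avp-high members differed in peptide, granule and clock genes, in both directions. This comparison was added after the counts of Avp had been seen. Of 5162 genes measured, 94 (1.82%) were above in both libraries and 237 (4.59%) below. Of 10 peptide and granule genes measured, Avp included, 3 were above and 3 below. Vgf, a precursor of secreted peptides, was 1.57 and 1.20 higher, and Scg2, a granin, 0.61 and 0.66 higher. Pcsk1n, a granin-like inhibitor of a prohormone convertase, was lower (-0.68, -0.82 to -0.54, and -0.63, -0.73 to -0.52). Of the rule's genes, described without a test, Nms stood at 362 CPM in Avp-high and 180 CPM in Avp-low control cells and at 334 and 172 CPM in stress, and Prok2 at 474 and 78.0 CPM and at 528 and 292 CPM. Rorb (1.59 and 1.19), Rora (1.17 and 1.03) and Zic1 (1.29 and 1.00) were also above, whereas the intervals of Six3 spanned 0 in both (-0.25 to 0.48 and -0.40 to 0.11). Among members with at least 3 of the rule's genes, Zic1 was at 0.27 and 0.19 and the stress library gave -0.10 for Rgs16. Over all members Rgs16 was 1.67 higher in control and 0.63 (0.43 to 0.83) in stress.

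Clock genes gave 5 of 18 above and none below in this comparison, and clock-output genes 2 of 8 above. The lists overlap, and these counts include Rora and Rorb (clock) and Rgs16 (clock output), which are given above. Ciart was 2.71 (1.49 to 4.53) and 0.93 (0.02 to 1.98) higher, from 39 against 5 UMIs in control and 33 against 14 in stress. Nr1d2 was 1.63 and 0.94 higher, Per2 1.45 and 1.08 and Hlf, an output factor of the clock, 1.05 and 0.78. Dbp was 1.33 (0.88 to 1.82) higher in control and 0.22 (-0.06 to 0.51) in stress. Per1 was not clear of counting error in either, at 0.32 (-0.77 to 1.49) and -0.70 (-1.71 to 0.26).

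The Avp-low members held the RNA of other peptides. Vip, a gene of the rule, stood at 3.10 and 52.2 CPM in Avp-high cells and at 462 and 1005 CPM in Avp-low cells, but 3 cells of each library held 217 of its 222 UMIs in control and 393 of 541 in stress. Cck, cholecystokinin, was lower in Avp-high cells by log2 values of -4.40 and -2.93, and Penk, the enkephalin precursor, by -2.39 and -2.73. Lhx1 (-1.79 and -1.03) and Calb2 (-1.69 and -4.16) were lower too. With at least 3 of the rule's genes, Cck stood at -0.46 and Calb2 at -0.41 in control. The 3 and 7 cells with at least 5 Vip UMIs held 0 and 1 of the Avp-high cells. Cck at 5 or more UMIs occurred in 5 cells of each library, and none of them was Avp-high or had 5 UMIs of Prok2 or Nms. Grp was nearly missing, with 3 UMIs in 1 control cell and 1 UMI in 1 stress cell, though 9.39% and 8.11% of the other neurons had a UMI of it.

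Against members without Vip, the 3 and 7 Vip-rich cells were higher in Rgs16 (1.03 and 1.47 on the log2 scale), Dbp (1.00 and 1.41) and Six3 (0.94 and 0.62). Syt10 stood at 494 against 93.0 CPM in control and 218 against 91.7 CPM in stress. Ier2, an immediate-early gene, was 2.16 and 1.35 higher. Rorb was lower (-1.78 and -1.13), as was Avp (-2.50 and -2.91), and Penk had no UMI in these cells. These ratios rest on 10 cells in all.

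**Figure D2:**
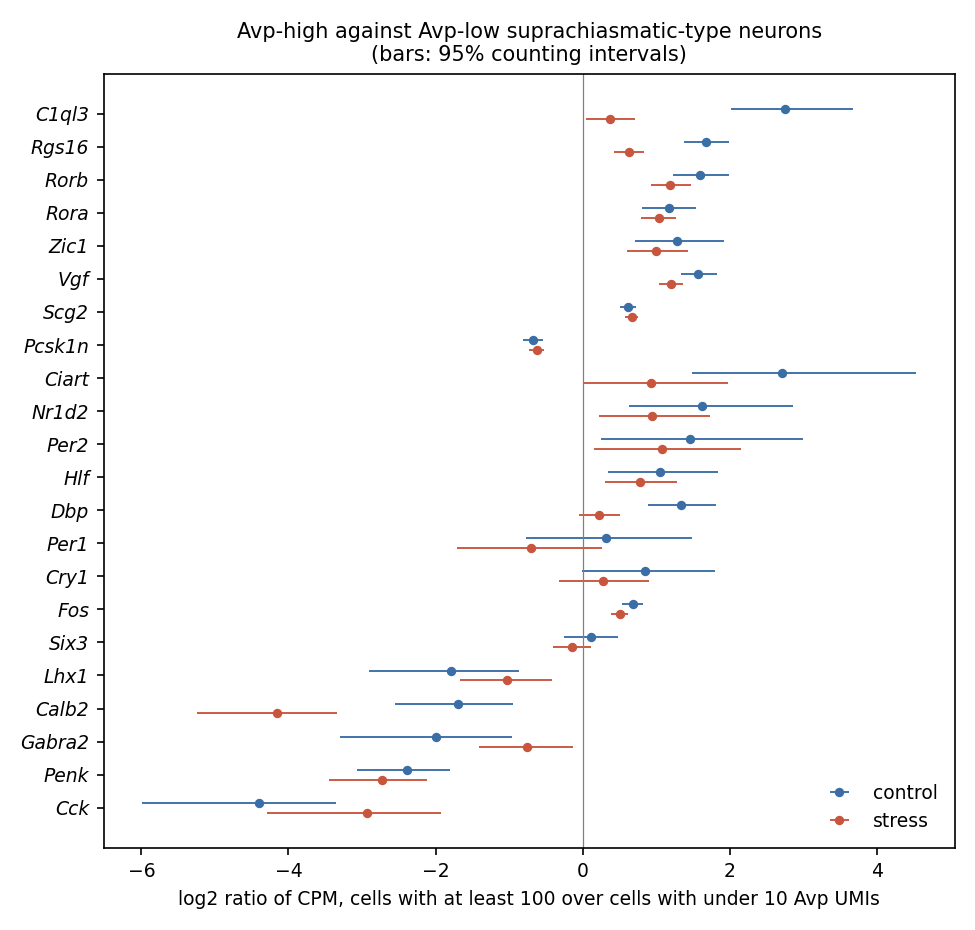
Log2 ratio of CPM in cells with at least 100 Avp UMIs (34 control, 60 stress) over cells with under 10 (29 and 50), for 22 genes outside the rule; bars are 95% counting intervals. Rorb, Rora, Vgf and Ciart lie to the right of 0 in both libraries, and Pcsk1n, Cck, Penk, Calb2 and Lhx1 to the left.

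The start regions of 4 of these peptide and clock genes are shown because Avp defines the bands, Ciart was higher in Avp-high cells, and Prok2 and Vip are peptides of the rule that a few cells held at high counts. Each runs from 250 bases before to 50 after the start site in RefSeq (GRCm38.p6), 5′ to 3′ on the gene's strand. Capitals mark CACGTG, the E-box bound by CLOCK and BMAL1, which reads the same on both strands. They cover chr2:130582539-130582838 (Avp, minus strand), chr6:99726343-99726642 (Prok2, minus), chr3:95882179-95882478 (Ciart, minus) and chr10:5638968-5639267 (Vip, plus).
Avp: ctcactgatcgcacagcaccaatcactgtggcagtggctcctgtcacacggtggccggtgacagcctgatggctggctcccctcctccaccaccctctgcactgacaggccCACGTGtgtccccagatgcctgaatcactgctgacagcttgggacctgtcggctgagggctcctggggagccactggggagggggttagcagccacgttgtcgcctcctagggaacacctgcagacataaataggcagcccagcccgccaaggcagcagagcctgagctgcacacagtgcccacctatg
Prok2: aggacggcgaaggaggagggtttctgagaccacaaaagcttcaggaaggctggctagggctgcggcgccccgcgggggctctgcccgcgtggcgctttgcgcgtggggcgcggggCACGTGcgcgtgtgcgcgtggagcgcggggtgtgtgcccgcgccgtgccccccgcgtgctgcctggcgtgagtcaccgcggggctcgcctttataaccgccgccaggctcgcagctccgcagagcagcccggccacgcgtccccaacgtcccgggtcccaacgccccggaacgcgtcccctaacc
Ciart: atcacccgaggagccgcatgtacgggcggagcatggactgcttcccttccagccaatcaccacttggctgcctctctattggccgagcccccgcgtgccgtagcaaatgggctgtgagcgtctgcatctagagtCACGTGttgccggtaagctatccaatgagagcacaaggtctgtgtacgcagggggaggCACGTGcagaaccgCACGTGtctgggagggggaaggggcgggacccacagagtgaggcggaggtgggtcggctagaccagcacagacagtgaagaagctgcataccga
Vip: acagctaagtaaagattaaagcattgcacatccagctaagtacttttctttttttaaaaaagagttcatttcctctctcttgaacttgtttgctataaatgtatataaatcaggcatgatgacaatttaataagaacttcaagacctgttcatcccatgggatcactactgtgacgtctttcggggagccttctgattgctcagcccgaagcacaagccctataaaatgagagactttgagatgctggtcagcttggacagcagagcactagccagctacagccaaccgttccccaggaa
Avp and Prok2 each had 1 E-box, which began 139 and 135 bases before the start site, and Ciart had 3. The Vip window had none. Of all 32851 windows of that length in the table, 7.15% held the motif. Of 21 genes looked up, chosen after their values were seen, 18 were found and 6 held it (Avp, Prok2, Ciart, Per1, Cck and Nmu), so it occurred in genes high in Avp-high cells and also in Cck, which was low there. The matches describe letters in these windows and no binding was measured.

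Between stress and control members, few genes differed by a fold of 2. Of 5814 genes with at least 50 UMIs, 32 (0.55%) were higher and 38 (0.654%) lower in the stress library, and the median log2 ratio of all genes was 0.02. Rgs16 (-0.01, -0.16 to 0.14), Rorb (0.09, -0.09 to 0.28) and Lhx1 (0.12, -0.32 to 0.59) did not differ beyond counting error. Prok2, a gene of the rule, stood at 241 and 398 CPM, and Six6 at 186 and 265 CPM. Both describe which cells the rule admitted as well as their content, since more stress members carried 3 or more of the rule's genes.

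Heat-shock chaperones stood higher in the stress members. All 11 measured had a ratio above 0, where 52.7% of all genes did, and 7 had an interval above 0, where 4.55% of all genes did. Their median was 0.34, against 0.20 in the other neurons. Hspa1a, the inducible HSP70, had a lowest, median and highest count of 0, 0.5 and 29 UMIs per control member and 0, 1 and 60 per stress member. It was found in 37 of 74 and 88 of 131 members. Its level was 214 CPM in control and 597 CPM in stress, a log2 ratio of 1.48 (1.24 to 1.74), against 0.54 in the other neurons, 0.66 in oligodendrocytes and in endothelial cells, and 1.52 in microglia. Hspa1a has a near-identical neighbour, Hspa1b (5 and 15 UMIs), and the split of reads between them is uncertain. Hsph1 was 0.61 (0.34 to 0.90) higher, Hspe1 0.42 and Hspa8, the constitutive HSC70, 0.34 (0.27 to 0.42). Without the mixed barcodes the 9 chaperones still measured were all above 0, with a median of 0.28.

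Immediate-early genes, which neurons switch on within minutes of activity, stood lower. Of 15 measured, 12 had a ratio below 0, where 47.3% of all genes did, and 11 had an interval below 0, where 4.14% of all genes did. The median was -0.33 against -0.21 in the other neurons, and -0.47 without the mixed barcodes. Fos had a lowest, median and highest count of 0, 23 and 105 UMIs per control member and 0, 21 and 121 per stress member. Its level was 2686 and 2319 CPM, a log2 ratio of -0.21 (-0.29 to -0.13), close to -0.24 in the other neurons. Fos was also lower in oligodendrocytes (-0.28), microglia (-0.17) and endothelial cells (-0.19). Junb stood at 422 and 245 CPM (-0.78, -1.01 to -0.55) and Egr1 at 243 and 162 CPM (-0.59, -0.88 to -0.29). In microglia and endothelial cells Junb was at -0.38 and -0.19 and Egr1 at -0.65 and -0.50. In oligodendrocytes Junb and Egr1 were at 0.09 and -0.13, and in the other neurons at -0.32 and -0.02. In the members Arc (-0.93), Nr4a1 (-0.58), Btg2 (-0.59) and Dusp1 (-0.33) were lower as well. Arc, though, stood at -0.29 as the mean of each cell's own CPM and at -0.11 with at least 3 marker genes. By contrast, Npas4 (0.18, -0.08 to 0.45) and Fosb (0.00, -0.21 to 0.22) did not differ beyond counting error. Cirbp and Rbm3, RNA-binding proteins induced by cooling, were also lower in the members, at -0.42 (-0.61 to -0.22) and -0.59 (-0.90 to -0.27). Cirbp was lower in the other neurons (-0.24), oligodendrocytes (-0.22), microglia (-0.65) and endothelial cells (-0.59) too. Rbm3 was lower in the other neurons (-0.34) and endothelial cells (-0.39), and its intervals spanned 0 in oligodendrocytes (-0.08) and microglia (-0.28).

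The core clock showed no common direction. Of 19 clock genes, 10 had a ratio above 0 and 9 below, with a median of 0.04 (6 above and -0.04 without the mixed barcodes). Rora was higher (0.36, 0.18 to 0.54), and Cry2 (-0.54, -1.06 to -0.02) and Ciart (-0.68, -1.28 to -0.07) were lower. In the other neurons Rora stood at 0.08 (-0.04 to 0.21), Cry2 at -0.28 (-0.43 to -0.14) and Ciart at -0.28 (-0.52 to -0.04). For the other 16 clock genes the interval in members spanned 0, among them Per1 (-0.45, -1.10 to 0.23), Per2 (-0.15, -0.80 to 0.53) and Nr1d1 (-0.19, -0.67 to 0.31). Differences inside these intervals were not detectable at this depth.

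Dbp, an output factor that follows the clock with high amplitude, stood higher in stress members and lower in 3 other classes of cells. Its count had a lowest, median and highest value of 0, 2 and 20 UMIs per control member and 0, 3 and 24 per stress member. The level was 302 and 401 CPM, a log2 ratio of 0.40 (0.18 to 0.64). In endothelial cells Dbp stood at 249 and 179 CPM (-0.48, -0.69 to -0.27), in oligodendrocytes at 37.0 and 24.0 CPM (-0.62, -1.04 to -0.22) and in microglia at 49.2 and 28.6 CPM (-0.76, -1.53 to -0.07). In the other neurons the ratio was -0.09 (-0.18 to 0.00). The intervals of the members and of these 4 classes did not overlap. Without the mixed barcodes the ratio in members was 0.29 (0.06 to 0.53), and with at least 3 marker genes 0.57. Ciart, by contrast, was lower in members, in endothelial cells (-0.90, -1.40 to -0.43) and in the other neurons (-0.28, -0.52 to -0.04). Its intervals spanned 0 in oligodendrocytes (-0.50) and microglia (-0.19).

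**Figure D3:**
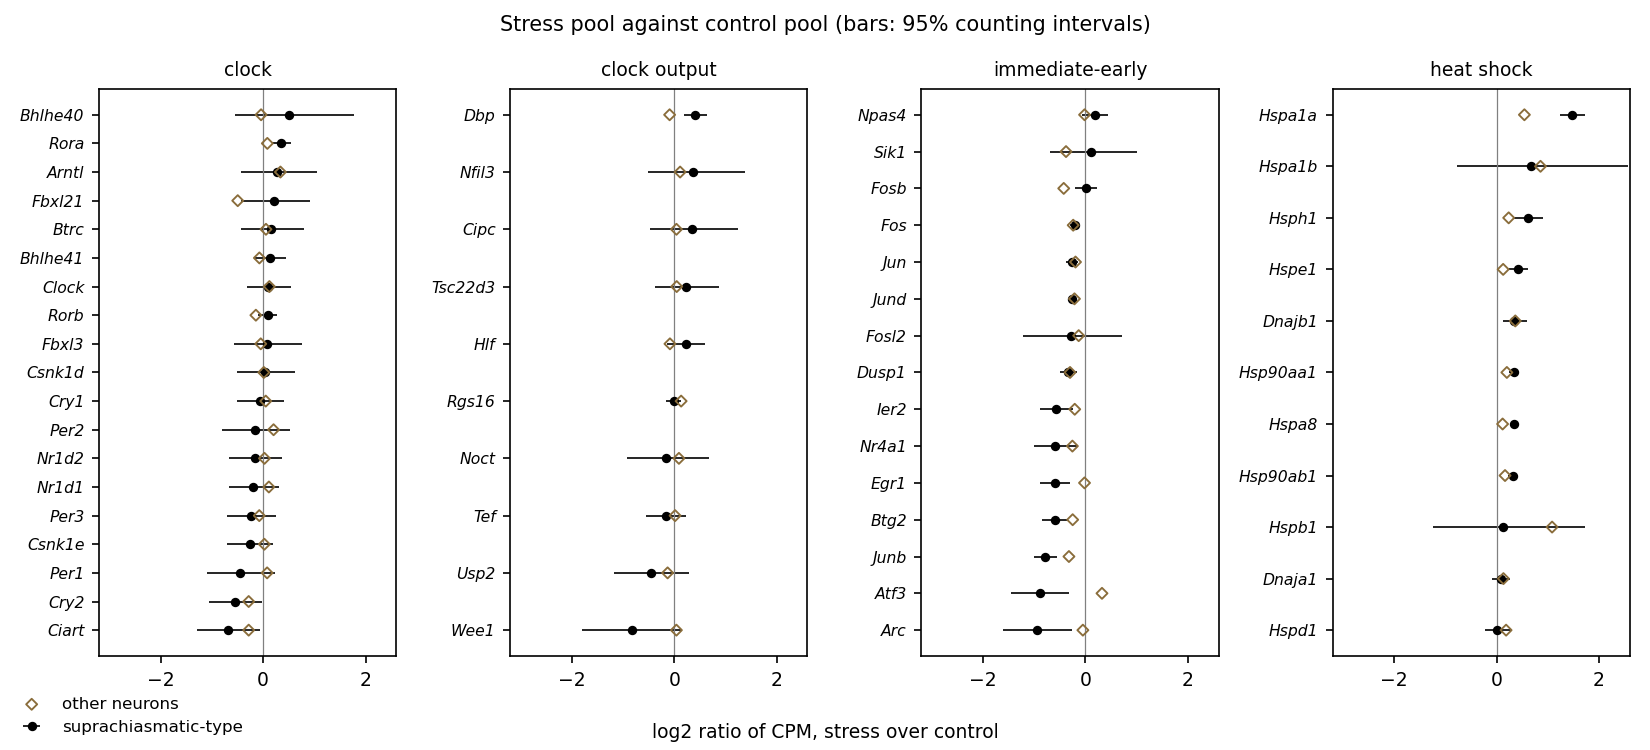
Log2 ratio of CPM, stress over control, for clock, clock-output, immediate-early and heat-shock genes; black points with 95% counting intervals are suprachiasmatic-type neurons and open diamonds the other neurons. Heat-shock genes lie at or right of 0, most immediate-early genes left of it, and clock genes on both sides.

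**Figure D4:**
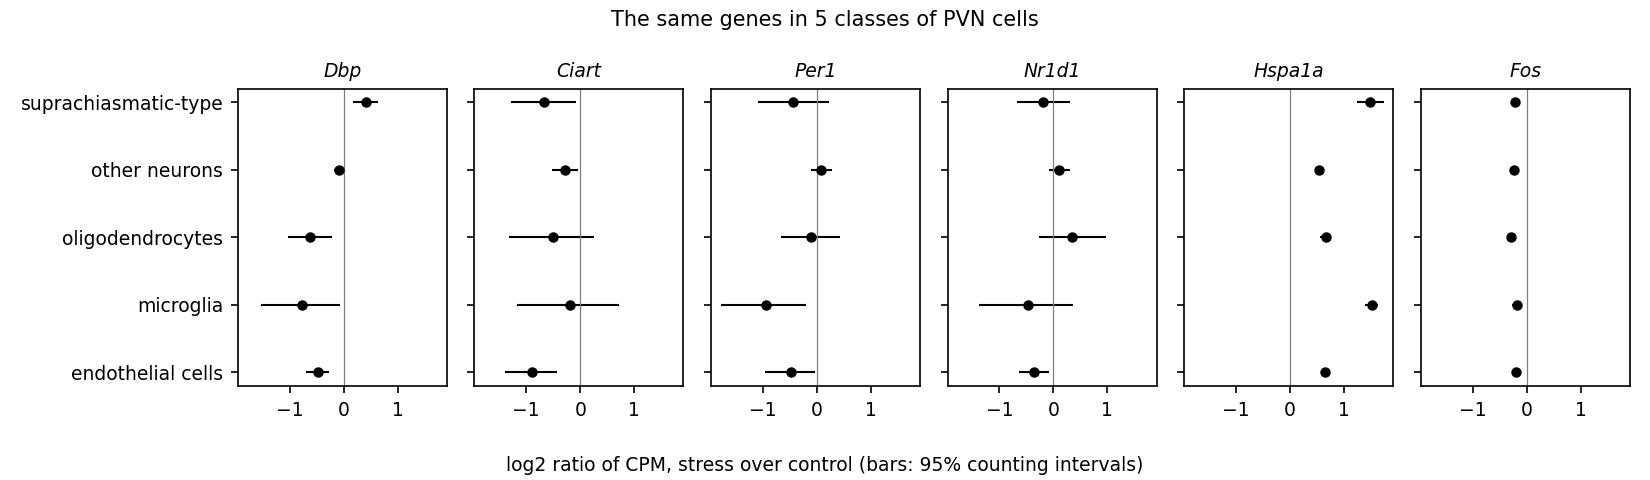
Log2 ratio of CPM, stress over control, of 6 genes in 5 classes of cells of the PVN libraries, with 95% counting intervals on one common axis. Dbp lies above 0 in suprachiasmatic-type neurons (0.40) and below 0 in oligodendrocytes, microglia and endothelial cells, and Hspa1a lies above 0 in all 5 classes.

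Other genes with clear ratios included both enzymes of GABA synthesis, Gad1 (371 and 537 CPM, 0.53, 0.33 to 0.74) and Gad2 (0.58, 0.31 to 0.86). In the other neurons these were 0.32 and 0.29 higher, and with at least 3 marker genes the members gave 0.13 and 0.12. Zfhx3 was 0.63 (0.31 to 0.98) higher, C1ql3, a secreted synaptic protein, 0.48 and Nalcn, the sodium leak channel that depolarises clock neurons by day, 0.67 (0.15 to 1.24). With at least 3 marker genes Zfhx3 stood at 0.16, C1ql3 at 0.46 and Nalcn at 0.67. Scn1a had 3 UMIs in control and 34 in stress, found in 3 and 19 cells. Of 12 measured genes of the glucocorticoid list, which holds responsive genes and the receptor gene Nr3c1, 6 were above 0 and 6 below. Nr3c1 (0.44) was among the 6 above, and 52.7% of all genes were above 0. Of the intervals, 1 lay above 0, that of Ddit4 (0.88, 0.21 to 1.64), and 3 below, where 4.14% of all genes did. These 3 were Dusp1 (also counted with the immediate-early genes), Klf9 (-0.76, -1.16 to -0.36) and Sgk1 (-2.05, -3.62 to -0.76). With at least 3 marker genes Klf9 stood at -0.15 and Ddit4, which had 23 control UMIs over all members, at 1.54. Without the mixed barcodes Sgk1 stood at -0.79 (-2.57 to 1.08). Nr3c1, the glucocorticoid receptor, was found in 11 and 29 members and was below the other neurons (-1.51 and -0.99).

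Most of the extreme ratios came from a few barcodes. Oxt, the oxytocin gene, had a ratio of -5.10, but a single control barcode held 11798 of the 12000 control UMIs, with 48326 UMIs in all, no Rgs16 and 2 marker UMIs. Gal (-4.71) rested on a single control cell with 653 UMIs, Trh (2.90) on a single stress cell with 106, and Ccdc153 (3.08), an ependymal gene, on a single stress barcode with 42. The myelin genes Mal (-4.58), Trf (-3.78) and Cldn11 (-3.83) were high in 4 control barcodes that each had over 20 UMIs of oligodendrocyte genes. Without the mixed barcodes Oxt stood at -1.07, Trh at 0.05, Ccdc153 at 0.45 (-1.41 to 3.11) and Avp, which was 0.34 with all members, at -0.03 (-0.06 to 0.00). Mal was then at -1.20 (-3.06 to 0.58), Trf at 0.44 and Cldn11 at 0.07, while Gal stayed low at -5.13. The number of genes lower by a fold of 2 was then 23 in place of 38.

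Sst, somatostatin, and Tac1, the substance P precursor, were higher in the stress members (log2 2.77 and 3.24) and were held by few cells. Of 344 Sst UMIs in stress, 3 cells held 290, and 4 cells had at least 5. No control member had more than 2. For Tac1, 3 stress cells held 51 of 58 UMIs. Spread over more cells were Nrp1, a receptor for semaphorins (14 and 41 cells, 1.48, 0.81 to 2.28), and Ptprb, a receptor phosphatase (6 and 42 cells, 1.75, 0.79 to 3.01). With at least 3 marker genes Sst stood at 1.13, Tac1 at 0.32, Nrp1 at 1.12 and Ptprb at 4.40.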

How the data were processed

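Libraries of PVN, pituitary and adrenal tissue (1 control and 1 stress pool of 5 mice each) were grouped by the label for condition. The deposited matrices held UMI counts per gene and barcode, not normalised by the authors. The tools named per the submitters' processing notes are Cell Ranger 2.1.1 and Scanpy, with mm10 as genome. Strand and cell calling are not given in the sources used here. In the PVN the lowest barcodes held 2762 (control) and 2549 (stress) UMIs, and the libraries 31110127 and 29916957 UMIs.

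Filters asked for 200 genes or more and no more than 25% of UMIs from mitochondrial genes (3617 of 3653 and 3560 of 3612 barcodes passed). Doublets were scored but not removed. The neurons of the rule had at least 6 UMIs of the 4 neuron genes and 2 of the 5 marker genes. For each class and library, counts were pooled and scaled to CPM. Log2 ratios used a prior of 0.5 UMI per sum, with exact conditional binomial intervals, and shares have Clopper-Pearson intervals. Genes with at least 20 UMIs over both libraries were measured, and those with at least 50 counted for a fold of 2. No p-value was computed. The ratio and its interval were run on simulated Poisson sums, the law that the interval assumes. Those sums held no spread between cells, so the run checks the calculation and not the intervals for these data. Gene coordinates came from GENCODE vM21 (27645 of 27998 gene IDs matched) and start regions from RefSeq GRCm38.p6. Python 3.11.15, numpy 2.4.6, scipy 1.17.1 and pandas 2.3.3 were used.

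Members and gene lists were chosen with earlier results of these data known. Genes were named from those lists, or as the 10 with the highest and the 10 with the lowest ratio by the interval bound nearest 0, or as the 20 furthest above other neurons by the lower bound of both libraries. The Avp bands and the mixed barcodes were set after seeing the data. Some genes that the rule names are not reported here. Nmu, Avpi1, Ncald, Vsnl1, Pcp4 and Nrgn are named outside this rule, from the comparison of Avp bands. Nmu is named for its start region as well. Alternatives covered the marker minimum, neuron minimum, mitochondrial limit, doublets, thinning, scaling, averaging over cells and the comparison cells.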

Additional observations from a re-analysis of the deposited data

Results flagged for a closer look

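For some listed genes the ratio of stress over control had opposite signs in suprachiasmatic-type neurons and in the other neurons. Both counting intervals were clear of 0. These were Atf3 (log2 -0.88 in members, 0.32 in other neurons), Avp (0.34 and -1.67), Penk (-0.32 and 0.42), Tac1 (3.24 and -0.67), Slc1a3 (-0.99 and 0.30) and Sst (2.77 and -0.88). The same held against non-neuronal classes of the PVN libraries. Dbp was 0.40 in members and -0.62 in oligodendrocytes, -0.76 in microglia and -0.48 in endothelial cells. Against oligodendrocytes, Ddit4 was 0.88 in members and -0.32, Ier2 was -0.57 and 0.20, and Junb was -0.78 and 0.09. Against microglia, Jund was -0.26 in members and 0.20. With 1 library per group none of these differences was tested. The share of all genes with such opposite signs is not given here, so the number of genes named is no result in itself.

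Several rest on few cells. Without the 6 control and 3 stress mixed barcodes, Avp stood at -0.03, Atf3 at -0.58 (-1.20 to 0.06) and Slc1a3, an astrocyte gene, at 0.37 (-0.73 to 1.71), so the interval of each reached 0. Tac1 was then 2.39, Sst 2.76 and Penk -0.42. In the other neurons Oxt stood at 6845 and 3473 CPM beside the ratio of Avp there.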

How the results depend on the processing

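No paired analysis was possible because the labels give no replicate numbers and each group is 1 library, so leaving out a replicate was not possible either. The share of members among neurons was higher in stress under all 8 alternatives run for it. Thinned to 2500 UMIs it was 0.727% and 3.23% (log2 ratio 2.15), with at least 3 marker genes 1.74% and 4.23% (1.28), and with a marker of at least 3 UMIs 2.96% and 6.18%. With a mitochondrial limit of 10% the stress share was 10.3%, and among neurons with a GABA marker 10.0%. The number of genes tested differed between settings, with 5814 in the main analysis, 1849 after thinning, 8785 with at least 20 UMIs, 2962 with at least 3 marker genes and 4353 with a marker of at least 3 UMIs. Genes higher by a fold of 2 numbered 12 after thinning (0.649% of those tested, against 0.55%), 223 with at least 20 UMIs and 259 at a fold of 1.5. Genes lower numbered 17 with at least 3 marker genes, 24 with a marker of at least 3 UMIs, 19 without high doublet scores, 9 after thinning, 23 without mixed barcodes, 161 with at least 20 UMIs and 186 at a fold of 1.5. Over the other neurons, the median of receptor and signalling genes was 1.89 in control with at least 3 marker genes and 0.086 in stress after thinning, and that of GABA-A receptor genes was -1.67 in stress with at least 3 marker genes.

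Signs of single ratios turned as follows, and the cause was not tested. With at least 3 marker genes: Gal 0.70, Cck 0.82, Penk 0.11, Scg2 0.15, and in the stress Avp bands Prok2 -0.20, Rgs16 -0.10 and C1ql3 -0.17. With a marker of at least 3 UMIs: Tac1 -0.015, Gal 1.65, Atf3 1.01, Avp -0.091, Cck 1.10 and Pcsk1n 0.075. Without high doublet scores: Trf 0.24 and Cldn11 0.16. Without mixed barcodes: Trf 0.44, Cldn11 0.072 and Avp -0.030. Minus the ratio in the other neurons: Six6 -0.089, Fos 0.026, Dnajb1 -0.016 and Six3 -0.37. Against other GABA neurons: Dlx2 -0.19 in control. After thinning: Calb1 -0.012 over the other neurons in stress.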

Other observations

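Some genes outside the lists differed between Avp-high and Avp-low members in both libraries and were picked after their values were seen. Nmu, the precursor of neuromedin U, had 14 UMIs in Avp-high and 1 in Avp-low control cells, and 49 and 3 in stress (log2 3.14 and 3.55). Avpi1, a gene induced by vasopressin, was 2.33 and 1.25 higher, and Pros1, protein S, 1.95 and 2.89 higher. The calcium sensors Ncald (-3.01 and -3.07) and Vsnl1 (-1.95 and -3.26) and the calmodulin-binding proteins Pcp4 (-2.37 and -2.29) and Nrgn (-3.88 and -3.98) were lower in Avp-high cells. Kcnk2 had 0 UMIs in Avp-high and 18 in Avp-low control cells, and 5 and 39 in stress.

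Hdc, the enzyme of histamine synthesis, was found in 22 and 24 members and stood above the other neurons by 1.51 and 3.68 on the log2 scale. In the other neurons its level was 13.7 CPM in control and 2.04 CPM in stress.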
